A study of Mus musculus with 23 samples.

Results

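Bone marrow cells that had been dissected by hand out of small attached clumps were searched for megakaryocytes and for the cells attached to them. A cell was taken as a megakaryocyte by rule when Pf4, Ppbp and Itga2b together gave at least 20 of every 10000 of its transcripts. The rule was met by 56 cells, and 48 further cells, here called partner cells, came from the same clumps. Both kinds of member stood among 944 dissected cells with at least 500 transcripts. Another 634 cells, the comparison cells, came from clumps of at least 2 such cells without a megakaryocyte by rule, and 206 cells were alone in their clump. The members were chosen by the measured levels of these 3 genes, so those levels are a description and carry no test.

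The series measured single mouse bone marrow cells with CEL-seq, in which a barcoded primer marks the mRNA of each well before linear amplification. Marrow was flushed gently, pieces of attached cells were taken apart with needles under a microscope, and the position of each cell in its clump was kept. Of 23 libraries in the labels, 18 held dissected cells and 5 held sorted haematopoietic stem cells (HSC; Lineage- Kit+ Sca1+ CD150+ CD48-). The deposited table held 17 dissected libraries, numbered here in the order of their records. The labels give neither strain, genotype, age, sex nor treatment, and they do not tie libraries to mice, so spreads between libraries may be technical. Kept cells numbered 13 to 86 per library, with 16682 to 319701 transcripts summed per library. Column names were repeated in 0 cases, and 0 pairs of columns held identical values.

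Megakaryocytes are the large, polyploid cells of the marrow that shed platelets into the blood. They load alpha granules with chemokines and adhesion proteins, carry the receptors by which platelets stick to damaged vessels, and build the cytoskeleton from which platelets are formed. Other marrow cells, neutrophils among them, are known to touch them and even to pass through them. Platelets and their fragments carry RNA and stick to leukocytes, so platelet transcripts in a neighbouring well can also be carried over.

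Of the 3 rule genes, Ppbp encodes the platelet basic protein that gives rise to CXCL7, Pf4 encodes platelet factor 4, also called CXCL4, and Itga2b encodes the αIIb chain of the platelet fibrinogen receptor (CD41). Ppbp (chromosome 5, 90768518 to 90770063, plus strand) and Pf4 (chromosome 5, 90772435 to 90773383, plus strand) are neighbouring protein-coding genes in GENCODE vM21. Itga2b lies on chromosome 11 (102453297 to 102470122, minus strand). The 250 bases before the RefSeq starts of the neighbouring chemokine genes (build GRCm38.p6, plus strand, chr5:90768268-90768517 and chr5:90772185-90772434) are shown because this pair of genes gave most of the rule transcripts. Capitals mark matches on either strand to TATAAA and to ETS-type words, which were AGGAAGT, its variant CGGAAGT and the same pair ending in C.
Ppbp: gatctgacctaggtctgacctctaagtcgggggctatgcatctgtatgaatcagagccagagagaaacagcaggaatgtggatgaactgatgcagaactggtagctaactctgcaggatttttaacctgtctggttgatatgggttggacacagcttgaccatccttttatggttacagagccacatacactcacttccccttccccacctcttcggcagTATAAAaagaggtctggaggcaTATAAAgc
Pf4: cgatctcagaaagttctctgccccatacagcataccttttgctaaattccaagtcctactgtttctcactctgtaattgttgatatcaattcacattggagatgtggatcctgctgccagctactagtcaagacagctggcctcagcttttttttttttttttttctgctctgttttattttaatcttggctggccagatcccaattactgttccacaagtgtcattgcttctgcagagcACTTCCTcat
The Ppbp window held TATAAA beginning 30 and 8 bases before the start, and the Pf4 window held AGGAAGT on the opposite strand beginning 10 bases before the start. Neither window held a GATA-type word, which was AGATAA, its variant TGATAA or the same pair ending in G. Of 32851 RefSeq windows of this length, 12.4% held TATAAA, 22.1% held one of the ETS-type words and 26.5% one of the GATA-type words, with no overlap between the marked words here.

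The name megakaryocyte held for few of the cells that met the rule. A second measure was taken from 72 other genes of megakaryocyte lists (granule contents, receptors, signalling and cytoskeleton, transcription factors), which the rule did not use. Over these genes 8 cells gave 1038 to 1780 per 10000 transcripts, while no other kept cell gave more than 373.7. These 8 cells, here called platelet-rich, had rule levels of 250.5 to 748.6 per 10000, and no other cell had more than 227.2. They held 2892 to 37702 transcripts with a median of 10272, against a median of 1158 in the other 48 cells by rule. The platelet-rich cells alone held 89.1% of all Pf4, Ppbp and Itga2b transcripts of the kept cells. The limit of 1000 per 10000 that sets them apart was chosen after the values had been seen.

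**Figure D1:**
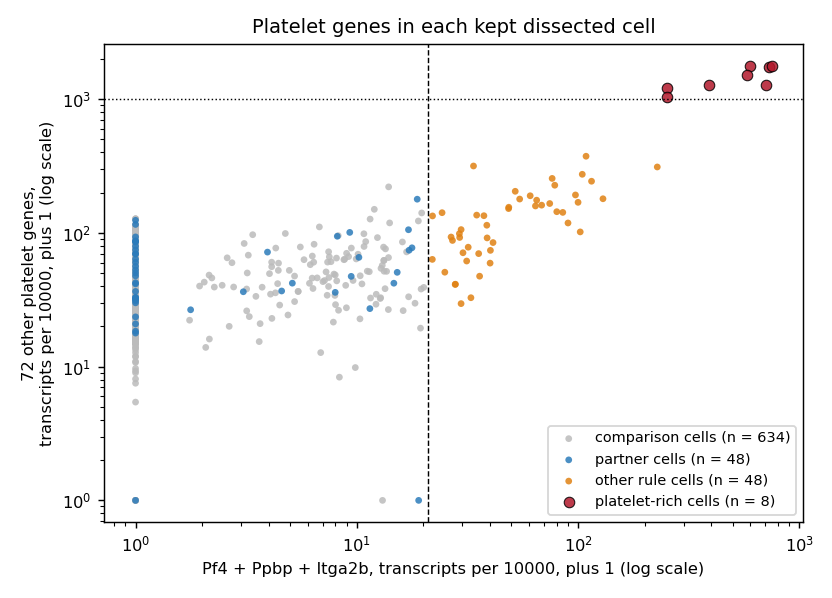
Each point is a kept cell that met the rule, shared a clump with such a cell or came from a comparison clump. The x axis gives the summed level of Pf4, Ppbp and Itga2b and the y axis that of 72 other platelet genes, both as transcripts per 10000 plus 1 on log scales. The dashed line is the rule and the dotted line the limit for platelet-rich cells. The 8 platelet-rich cells lie apart in the upper right corner, and the other 48 cells by rule join the cloud of comparison cells.

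Near the limit of the rule the values ran on without a gap. The 5 cells just outside had rule levels of 18.04 to 19.08 per 10000 and rested on 1 or 2 rule transcripts, and the 5 just inside had 20.95 to 25.68 on 3.01 to 18.42 transcripts. Of all 56 cells by rule, 25 were called on 2 to 5 transcripts and 20 had fewer than 1000 transcripts in all. A cell of 500 transcripts passes with a single rule transcript, so depth enters the rule itself. At a limit of 10 per 10000 the rule took 107 cells, and at 40 per 10000 it took 31.

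The 8 platelet-rich cells came from 5 libraries, 3 of them from library 14, 2 from library 15 and 1 each from libraries 1, 9 and 10. Ppbp stood at 275.4 to 482.4 transcripts per 10000 in the 6 cells of libraries 1, 9, 10 and 14, and at 85.99 and 85.97 in the pair of library 15. Pf4 gave 83.33 in library 1, 194.3 in library 9, 131.3 in library 10, 137.1, 72.35 and 189.7 in library 14, and 111.3 and 99.17 in library 15. Pf4 thus exceeded Ppbp in both cells of library 15 and in none of the other 6. Itga2b ranged from 43.87 to 150.4. In 5 of the 8 the deposited column name carried the word big, as it did in 0 of the other 48 cells by rule and in 13 of the 936 kept cells that were not platelet-rich. A column named mega, in library 16, had 7360 transcripts and none from a rule gene, and its macrophage genes stood at 402.4 per 10000.

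Genes of the platelet granules and of secretion were high in these cells. Thbs1, the adhesive alpha-granule protein thrombospondin 1, stood at 155 per 10000 transcripts summed over the platelet-rich cells and at 0.443 over the comparison cells, a ratio of 351. By cell, Thbs1 ran from 28.34 in library 15 (clump 819) to 449.2 in library 14 (clump 733). Vwf, von Willebrand factor, had a ratio of 348 and was seen in 7 of the 8 cells, the exception being the cell of library 14, clump 732. Nrgn, neurogranin, stood at 79.2 against 0.471, and Clu, the chaperone clusterin, at 43.2 against 0.180. Of 15 granule and secreted genes with enough transcripts to be measured, 13 were at least 4 times as high in platelet-rich as in comparison cells; of all 8035 genes measured this way, 8.26% were. Timp2, a metalloproteinase inhibitor, was not, with a ratio of 0.282, nor was Sparc, at 0.163 against 0.0983.

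Of the receptors and adhesion proteins, 19 of 20 measured members were at least 4 times as high. The subunits of the von Willebrand factor receptor stood together. Gp1bb gave 77.2 per 10000 against 0.224 in comparison cells, Gp9 32.3 against 0.186, Gp5 30.4 against 0.0928 and Gp1ba 20.7 against 0.0710. Gp1bb was found in all 8 cells, at 68.26 in library 1, 98.20 in library 9, 81.57 in library 10, 79.05, 23.98 and 105.9 in library 14, and 23.03 and 4.168 in library 15. Itgb3, the β chain that pairs with Itga2b, had a ratio of 189, and Treml1, a receptor of the granule membrane, one of 446. Clec1b, the podoplanin receptor CLEC-2, was lowest in library 1, at 3.465, and highest in library 15, at 52.22 and 56.23. Cd36, the thrombospondin receptor of platelets, had 0 transcripts in the platelet-rich cells and 0.619 per 10000 in the comparison cells.

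All 23 measured genes of signalling and cytoskeleton were at least 4 times as high. Alox12, the platelet 12-lipoxygenase, had a ratio of 406, Gng11, a G-protein γ subunit, one of 404 and Myl9, the myosin light chain 9, one of 458. Plek, pleckstrin, gave 41.4 against 0.415. Tubb1, the β1 tubulin of the platelet marginal band, was found in all 8 platelet-rich cells at 3.545 to 23.78 per 10000, and in 12 of the 56 cells by rule. Tmsb4x, thymosin β4, is abundant in leukocytes too and stood at 440 against 102.

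Of the transcription factors of the lineage, 4 of 11 measured were at least 4 times as high. Nfe2, which drives platelet release, had a ratio of 6.24, Gata1 one of 4.78, Fli1 one of 4.52 and Gata2 one of 24.1. The size of the Gata2 ratio rested largely on library 15, whose cells gave 23.03 and 13.79 per 10000. The other 6 gave 0 to 2.776, against 0.142 in comparison cells, and a ratio without library 15 was not taken. Nfe2 was also highest in library 15, at 33.84 and 35.34 against 4.950 to 20.99 in the other 6. Runx1, with 0.654 against 0.672, and Zfpm1, the GATA1 cofactor FOG1, with 1.40 against 1.82, were no higher than in comparison cells. The ratios come from summed transcripts of few cells and have no test.

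**Figure D2:**
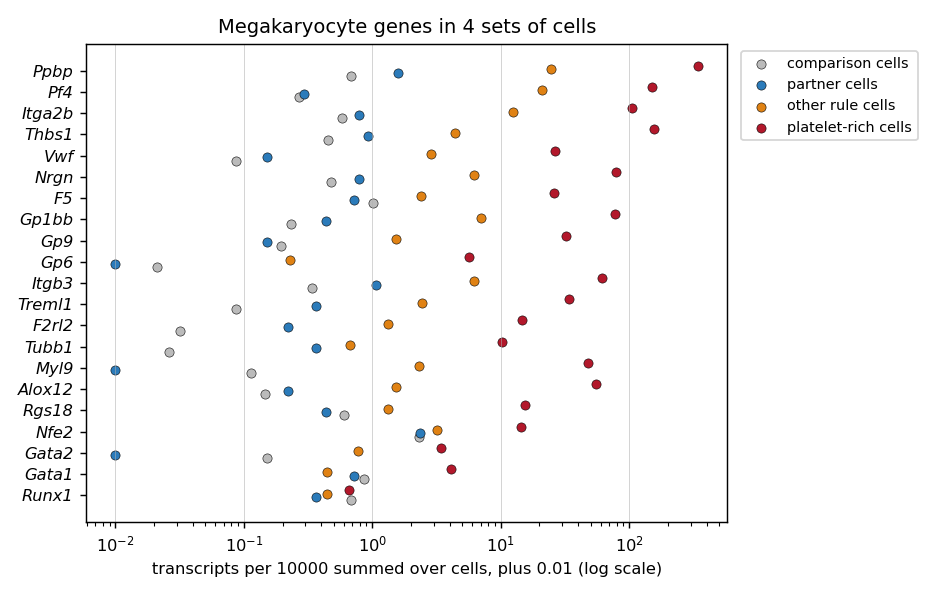
Points give the transcripts per 10000 (plus 0.01, log scale) of 21 genes, each summed over the 634 comparison, 48 partner, 48 other rule and 8 platelet-rich cells. Platelet-rich cells are farthest right for every gene drawn but Runx1. Partner cells lie right of comparison cells for some genes and left for others, with Tubb1 at 0.3545 against 0.0164 and Myl9 at 0 against 0.104. The partner values of this pair rest on 5.01 and 0 transcripts.

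Outside the lists, the order by ratio over the platelet-rich cells was led by Slamf1, which encodes CD150 and stood at 7.60 per 10000. Slc6a4, the serotonin transporter that fills platelets with serotonin, was seen in all 8 cells, at 4.720 to 38.88, and in 0 of the other 48. Gas2l1 stood at 26.4, Ctla2b at 13.1, Rbpms2 at 11.4, and Pros1, the anticoagulant protein S, at 5.71. Over all 56 cells by rule, with a gene required in at least 28 of them, the leaders were Hist1h1c, a linker histone (ratio 20.1), Rsu1, a partner of focal adhesion proteins (10.6), Myh9, the non-muscle myosin heavy chain of platelets (6.98), and Myl6, a myosin light chain (5.57). These genes were ranked on the same cells and the orders carry no test.

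Genes of mature and maturing blood cells of other kinds were mostly scarce in the platelet-rich cells. The S100 genes of the neutrophil line summed to 10.2 per 10000 (1.036 to 28.54 by cell) against 615 in comparison cells. Globin genes summed to 7.35 against 431.5, promyelocyte granule genes to 0.818 against 67.1, and cell cycle genes to 11.2 against 146. The mature neutrophil list stood at 31.3, but 375.9 of its 384 transcripts there were Slc2a3, the glucose transporter GLUT3, and Retnlg gave 3.01. B cell genes and T and NK cell genes were at 0. Other lists were higher than in comparison cells. Stem and progenitor genes, some of which megakaryocytes also express, summed to 16.1 per 10000 (9.835 to 43.05 by cell) against 3.22, and endothelial, stromal and bone genes to 10.1 (2.355 to 20.09) against 1.88. All 8 cells were left without a class by the marker rule used for the other cells.

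Most of the 48 other cells by rule looked, by their leading marker lists, like the cells around them. Each kept cell was given a class when the genes of 1 marker list reached at least 100 per 10000 and 5 transcripts, and the highest list counted. By this measure 21 of the 48 were erythroblasts, 12 myelocytes, 4 mature neutrophils, 3 eosinophils, 1 each macrophage, B cell and plasma cell, and 5 had no class. The classes are ranges of a score, and 9 of the 56 cells by rule and 125 of all kept cells had a leading list between 50 and 200 per 10000. The 21 erythroblasts by rule had erythroblast genes at a median of 347 per 10000, against 370 in 243 comparison erythroblasts. Their platelet lists stood at a median of 143 (28.6 to 310), against 35.4 (0 to 149) in those comparison erythroblasts, so the ranges overlapped. The 12 myelocytes by rule had myelocyte genes at 637 and platelet lists at 107, against 1200 and 43.4 in 204 comparison myelocytes, and fewer transcripts (median 844 against 2416).

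Rule genes came in different mixtures in these cells. Among the 48, 22 had no Pf4, 7 no Ppbp, 16 no Itga2b, and 13 had all 3. In library 14, Ppbp made up 82.5% of rule transcripts in the 19 other cells by rule and Pf4 5.83%, while in its 3 platelet-rich cells Ppbp made up 62.7% and Pf4 23.8%. In library 11, which had no platelet-rich cell, Pf4 made up 56.5% and Ppbp 17.9%, but 1 cell (clump 612) held most of the Pf4. Over the other 5 cells by rule of library 11, Pf4 made up 29.3% and Ppbp 38.9%. Over the 48 cells, 24 of 55 measured platelet-list genes were at least 4 times the comparison level, where 1.52% of 7956 genes were; for all 56 cells the figures were 56 of 70 genes and 6.38% of 8166. The 3 rule genes are not among these, and what the low depth of the 48 cells adds to the ratios was not tested. The levels pool the 48 cells, whose median was 12 platelet genes detected (2 to 50), so deep cells weigh most. Of 64.6 Gp1bb transcripts, the unclassed cells of libraries 4, 10, 11 and 12 gave 6.07, 6.07, 10.2 and 6.07. How far the count of 24 genes rests on such cells was not tested.

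A few of the 48 held a broad set of platelet genes. In library 11, clump 581 had 3 cells by rule with 50, 36 and 11 platelet genes detected, all classed as erythroblasts. The class rule held no platelet list. Platelet genes stood at 273.5, 254.7 and 154.7 per 10000 in these cells, and erythroblast genes at 135, 156.7 and 346.6. Leading genes of the cell with 36 platelet genes included muscle genes (Ttn, Ckm, Acta1). A further unclassed cell, in clump 612, had 42 platelet genes. That cell had 74.98 Pf4 transcripts, 19.74 of Itga2b, 10.2 of Gp1bb and 1.002 of Ppbp. Unclassed cells of library 4 (clump 196) and library 12 (clump 649) likewise had Pf4 (36.48 and 20.82 transcripts), Gp1bb (6.07 in each) and Serpine2 (5.05 in each) with 0 Ppbp and 0 Gp9. Ppbp exceeded Pf4 in other broad cells: the unclassed cell of library 10, clump 564, with 45 platelet genes, had 14.4 Ppbp and 3.018 Pf4 transcripts, and the cell with 50 genes in library 11, clump 581, had 18.66 and 13.34. These cells were singled out after their values had been seen.

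Cells by rule were unevenly spread over the libraries. They numbered 22 of 82 kept cells in library 14 and 12 of 67 in library 9, so that this pair held 34 of the 56. Libraries 10 and 11 had 7 and 6, library 2 had 3, library 15 had 2, libraries 1, 3, 4 and 12 had 1 each, and 7 libraries had none. The rule genes were also found at low levels outside the members. In comparison cells they summed to 5.91 per 10000 in library 10, 2.68 in library 14, 2.41 in library 9 and 2.02 in library 11, and to 0.597 in library 15, which had 2 platelet-rich cells. In library 10, 59 of the 71 cells that were not platelet-rich had a rule transcript, and Ppbp made up 56.6%, Pf4 12.02% and Itga2b 31.3% of these transcripts. In its platelet-rich cell the shares were 56.8%, 22.6% and 20.6%.

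**Figure D3:**
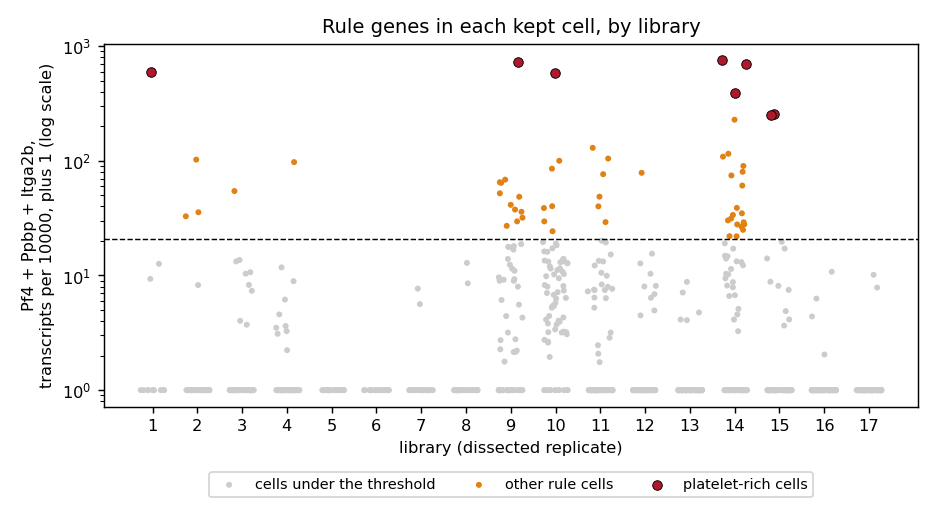
Points are kept cells of the 17 dissected libraries, with the summed level of Pf4, Ppbp and Itga2b as transcripts per 10000 plus 1 on a log scale. The dashed line is the rule at 20 per 10000. Libraries 9 and 14 hold 34 of the 56 cells above it, and libraries 9, 10, 11 and 14 also have the most points between 0 and the line.

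The sorted HSC gave a reading of the same genes in another preparation. Over 91 to 95 cells each, sorted replicates 3, 4 and 5 gave rule levels of 0.911, 4.15 and 4.597 per 10000, nearly all of it Pf4 and Itga2b, with Ppbp at 0.0414, 0 and 0.106. Replicate 1, with 7 cells, had 0 rule transcripts. In the sorted cells 4 met the rule.

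Partner cells were compared with comparison cells of the same library, which asks whether cells by rule had neighbours of a particular kind. Of the 48 partners, 7 shared a clump with a platelet-rich cell, so most were neighbours of the other cells by rule. Partner cells came from 7 libraries (2, 9, 10, 11, 12, 14 and 15), and each library counted once. Pooled over libraries, the 48 partners were 22 erythroblasts, 12 myelocytes, 6 mature neutrophils, 4 monocytes or dendritic cells, 1 eosinophil and 3 without class; 23 of the 48 came from library 14. No class share passed an exact sign-flip permutation test over libraries (two-sided, 9 shares, Benjamini-Hochberg adjustment, smallest possible p 0.0156 where all 7 libraries differ). After the adjustment, 1 share alone at that p could not have passed. Libraries with a difference of 0 do not flip, so sparse classes could not reach it. Promyelocytes (lower in 5 libraries, higher in 0) had p = 0.0625 in this test, the lowest open to them. Macrophages and plasma cells (each lower in 4, higher in 0) had 0.125, likewise the lowest. The test thus cannot decide whether a single class share differed.

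The neutrophil line (promyelocytes, myelocytes and mature neutrophils) made up a mean of 45.2% of partner cells and 60.4% of comparison cells. By library the difference was -15.2 percentage points ± 19.1 (SD, n = 7), lower in 5 libraries and higher in 1 (exact permutation p = 0.0938, adjusted 0.225). Promyelocytes, the stage that makes primary granules, were absent from the 48 partners, which allows a share of up to 7.40% (exact 95% interval). They made up a mean of 6.14% of comparison cells (exact permutation p = 0.0625, n = 7, adjusted 0.225). Libraries 9 and 14, with 10 and 23 of the partners, had 0 promyelocytes among their comparison cells as well. The interval pools cells and the mean counts each library once, so they cannot show a lack of promyelocytes. Eosinophils differed by -3.12 points ± 3.58 (n = 7, adjusted exact p = 0.225) and macrophages by -1.64 ± 2.36 (n = 7, adjusted exact p = 0.225).

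Erythroblast shares went in opposite directions. They were 69.6% of partners against 50% of comparison cells in library 14, 60% against 16.98% in library 10 and 20% against 8.11% in library 9. They were 25% against 39.7% in library 11, and 0% against 37.8% and 40% in libraries 12 and 15, each with 2 partners. Over the 7 libraries the difference was -2.57 points ± 30.5 (exact permutation p = 0.875). Monocytes and dendritic cells had 4 partner cells, 2 in library 9 and 1 each in libraries 12 and 15, and differed by 16.2 points ± 24.1 (n = 7, adjusted exact p = 0.321).

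A cell by rule and its partner often shared a class. Leaving out the clumps of platelet-rich cells and unclassed cells, 24 of 39 pairs did (61.5%, exact 95% interval 44.6 to 76.6%), and 99 of 233 pairs of comparison cells in the libraries with cells by rule did (42.5%, 36.1 to 49.1%). Library 14 gave 26 of the 39 pairs. Within library 14 the counts were 18 of 26 and 13 of 21, and in library 9 they were 2 of 6 and 12 of 23. The pairs share cells and libraries, and the difference was not tested.

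Mature neutrophils were the most frequent neighbours of the platelet-rich cells. Of the 8, 7 shared a clump with at least 1 other kept cell, 9 cells in all, of which 2 met the rule themselves. Of the 9, 6 were mature neutrophils (66.7%, exact 95% interval 29.9 to 92.5%), 1 was a myelocyte, 1 a monocyte or dendritic cell and 1 had no class. Both mature neutrophils of library 9 had their list at 160.7 and 183.7 per 10000, near the class limit of 100, and at a limit of 200 the count was 4 of 9, with 0 in library 9. Mature neutrophils made up 8.68% of the 634 comparison cells (6.60 to 11.1%). All 5 platelet-rich cells with a kept neighbour in libraries 9, 10 and 14 had a mature neutrophil beside them, and neither cell in library 15 had one.

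Over the 4 libraries with such partners, and against all cells of their clumps without a platelet-rich cell, the mature neutrophil share was 66.7% against 26.4% in library 9, 100% against 11.7% in library 10, 100% against 7.25% in library 14 and 0% against 8.57% in library 15. The difference of 53.2 points ± 47.5 (SD, n = 4) had an exact permutation p of 0.25 and an adjusted p of 0.333, where 4 libraries cannot go below 0.125; at a class limit of 200 it was 37.4 points ± 62.7 (n = 4, adjusted exact p = 0.6). Erythroblasts were absent from the 9 partners (up to 33.6% allowed by the exact interval) and made up 11.3 to 63.8% of the comparison cells by library, lower in 4 of 4 libraries (-34.2 points ± 23.0, exact p = 0.125, adjusted 0.333). This comparison was added after the values had been seen, and it rests on 1 to 3 partner cells per library.

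**Figure D4:**
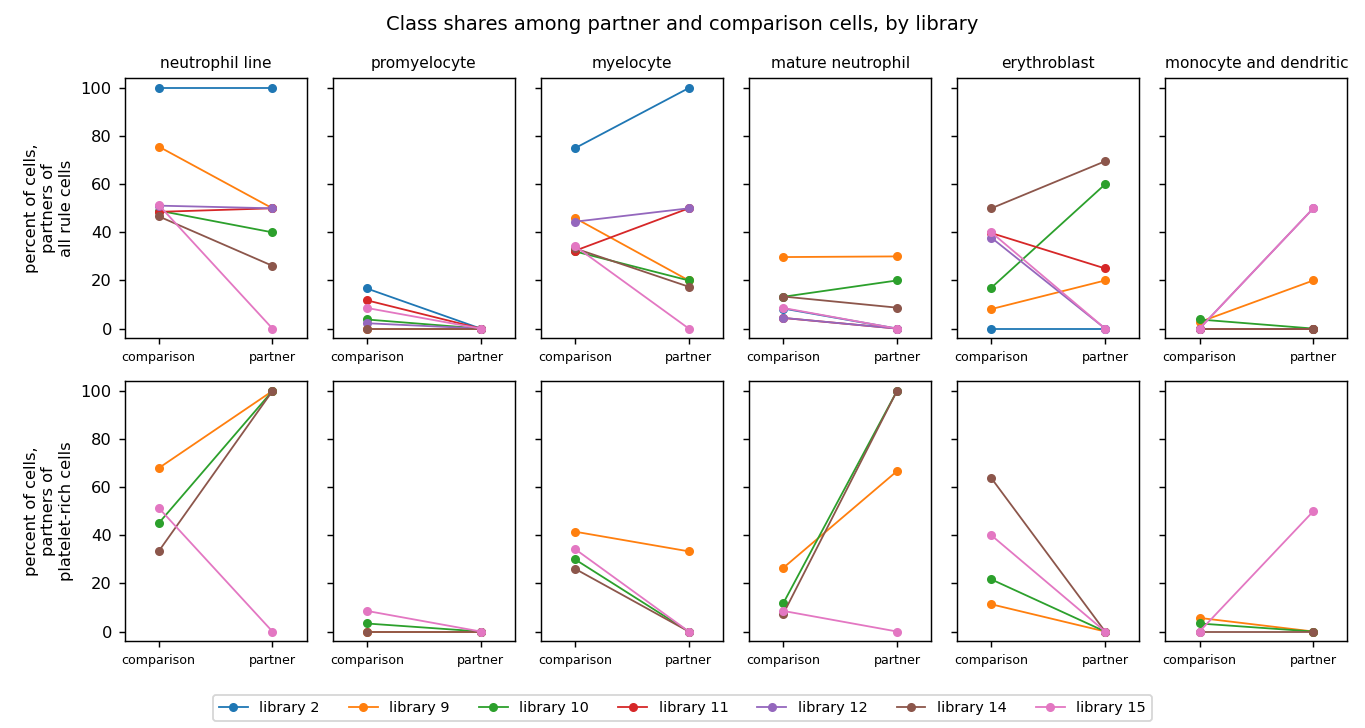
Lines join the share of a class among comparison cells and among partner cells of the same library, in percent of cells. The upper row has the partners of all cells by rule in 7 libraries and the lower row those of platelet-rich cells in 4. In the lower row the mature neutrophil share is higher among partners in libraries 9, 10 and 14 and lower in library 15, and in the upper row no class moves one way in all 7 libraries.

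The 6 mature neutrophils beside platelet-rich cells carried genes of that stage in different mixtures. S100a8 and S100a9, the calprotectin subunits, belong to the list of the whole neutrophil line. They stood at medians of 652 and 734 per 10000, against 814 and 961 in the 55 comparison mature neutrophils. Retnlg, a resistin-like gene of late neutrophils, stood at a median of 281 (0 to 759) against 254 (0 to 574), and Cxcr2, the chemokine receptor by which neutrophils leave the marrow, at 17.7 against 22.3. Mmp9, gelatinase B, stood at 12.2 (0 to 32.7) against 43.5 (0 to 145). The ranges overlapped for each of these genes. The partner in library 14, clump 733, had Retnlg at 759 of a list level of 774.9, with S100a8 at 0 and S100a9 at 8.05. The partner with 564.2 transcripts in library 9, clump 515, had 0 Retnlg, Mmp9 and Cxcr2. Its Csf3r stood at 89.5, and Mmp8 and Il1b at 35.59 each. The unclassed partner in library 15 was large, with 15782 transcripts led by Ptma and genes of ribosomal proteins, and promyelocyte genes at 79.6 per 10000.

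Platelet transcripts were found in most of these neighbours at low level. Of the 9, 7 had a rule transcript, and the 9 held 17.1 rule transcripts in all. Ppbp gave 13.1 of them, Itga2b 4.01 and Pf4 0, whereas Pf4 made up 25.3% of rule transcripts in the platelet-rich cells beside them. The pair of neutrophils that met the rule had 3.02 and 6.07 Ppbp transcripts and none of Pf4 or Itga2b. All 6 mature neutrophil partners, which came from libraries 9, 10 and 14, had a rule transcript. In the same libraries 12 of 27 mature neutrophils outside these clumps and under the rule did, at median depths of 1065 and 1224 transcripts. Over all libraries 13 of 55 comparison mature neutrophils, also under the rule, had a rule transcript. The 6 include the pair that met the rule, while cells that met it were left out of the 27 and the 55. The sets are thus unlike in the genes counted, and the counts carry no test. The 72 platelet genes stood at a median of 111 per 10000 (73.2 to 316) in the 6 and 70.0 (0 to 220) in the 27, with overlapping ranges. The 316 came from the pair that met the rule, and among the 6 the highest value under the rule was 177.8. Carry-over of platelet RNA between cells of a clump was not tested.

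By library, the 72 platelet genes gave 69.2 per 10000 in partners of platelet-rich cells and 49.7 in other cells of library 9, 73.2 and 56.9 in library 10, 176 and 51.6 in library 14, and 32.0 and 36.4 in library 15. The difference of 39.0 ± 58.0 (SD, n = 4) was higher in 3 libraries, with an exact permutation p of 0.25. The value of library 14 includes the pair of neutrophils that met the rule.

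Around all cells by rule the platelet genes were no higher than elsewhere beyond the spread. Partners gave 21.9 per 10000 in library 2, 54.8 in library 9, 50.7 in library 10, 36.7 in library 11, 54.8 in library 12, 38.7 in library 14 and 32.0 in library 15. Comparison cells of the same libraries gave 37.2, 44.7, 52.9, 33.9, 29.1, 43.9 and 36.4. The mean difference was 1.64 ± 13.1 (SD, n = 7; exact permutation p = 0.75), higher in 3 libraries and lower in 4. Partners are by construction under the rule, so a neighbour with more platelet RNA would have been counted as a cell by rule. A rule transcript was seen in 18 of 48 partners (37.5%, exact 95% interval 23.95 to 52.65%) and in 125 of 634 comparison cells (19.7%, 16.7 to 23.0%). The libraries that gave most partners also had the higher levels in comparison cells, and whether this accounts for the shares was not tested. By library, partners with a rule transcript were 8 of 23 in library 14, 6 of 10 in library 9, 3 of 5 in library 10 and 1 of 4 in library 11. Comparison cells of these libraries gave 9 of 30, 19 of 37, 44 of 53 and 20 of 68. In libraries 2, 12 and 15, 0 of 2 partners each had one, against 0 of 12, 5 of 45 and 9 of 70 comparison cells. The pooled difference was thus not seen in every library.

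**Figure D5:**
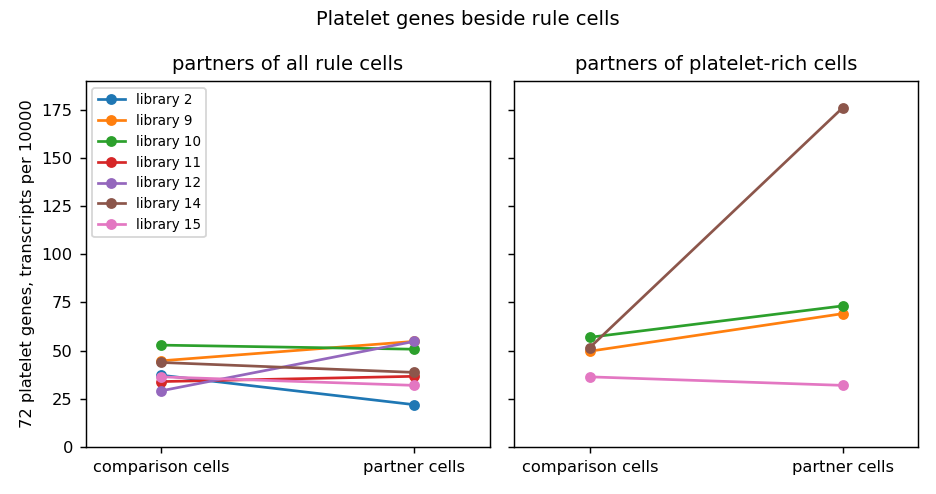
Lines join the summed level of 72 platelet genes, in transcripts per 10000, in comparison and partner cells of the same library. The left panel has partners of all cells by rule (21.9 to 54.8) and the right panel partners of platelet-rich cells, where library 14 stands at 176 and the other 3 at 32.0 to 73.2.

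Depth did not separate partners from comparison cells. The median cell had 913 transcripts in partners and 987 in comparison cells of library 2, 2135 and 2199 in library 9, 2187 and 2465 in library 10, 3410 and 1835 in library 11, 1196 and 1242 in library 12, 1245 and 1786 in library 14, and 9468 and 2008 in library 15. The mean log2 difference was 0.32 ± 0.95 (SD, n = 7; exact permutation p = 0.516), and without library 15 it was -0.0011.

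Gene by gene, no difference between partner and comparison cells passed the test. Transcripts were summed per library and arm and fitted with edgeR's quasi-likelihood test with library as a term. Of 593 genes tested, 0 passed an adjusted p of 0.05 (0% called), and 27 had an unadjusted p under 0.05. DESeq2 called 1 gene, Serpinb1a, lower in partners (0.169% called). The median log2 fold change over all genes tested was -0.16, and scaling by library totals alone gave 0.04, so values of this fit carry a shift of that size. None of the 593 was a rule gene or a platelet receptor, whose transcripts were too few in both arms.

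The 8 genes with the lowest p all had negative log2 fold changes, and none passed the test. Serpinb1a, an inhibitor of neutrophil elastase, stood at 8.46 ± 7.31 per 10000 in partners and 16.5 ± 10.2 in comparison cells (SD over 7 libraries), lower in 7 of 7, with a log2 fold change of -1.45 (SE 0.36, edgeR adjusted p = 0.249). Actn1, the actin crosslinker α-actinin 1, had -1.99 (SE 0.55, edgeR adjusted p = 0.310) and was lower in 6 of 7. Ltb4r1, the leukotriene B4 receptor, had -1.40, Clec12a, an inhibitory receptor of myeloid cells, -1.34, and Sun2, a protein of the nuclear envelope, -1.23, the last lower in 7 of 7. Ctsd, cathepsin D, had -1.47, and Prg3 and Ear2, eosinophil granule genes, had -1.61 and -2.23. The edgeR adjusted p of these last 6 was 0.632.

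By list, the members lay mostly below 0 and none passed. All 9 tested myelocyte genes had a negative log2 fold change (median -0.89), as did all 4 promyelocyte genes (-1.45), all 4 mature neutrophil genes (-0.93) and all 6 eosinophil genes (-2.42), where 413 of the 593 genes were negative. Erythroblast genes had 4 above and 7 below 0 (median -0.11), and cell cycle genes 2 above and 12 below (-0.26). Camp, the cathelicidin of secondary granules, had -1.06 (edgeR adjusted p = 0.993), Prg2, the major basic protein of eosinophils, -2.61 (0.632), and Car2, carbonic anhydrase 2 of erythroblasts, -0.19 (0.993). Of adhesion genes, Itgb2, the β2 integrin chain that binds platelets through Mac-1, had -0.20 and Cd47 0.15, each higher in 5 of 7 libraries by mean level, with an edgeR adjusted p of 0.993. Of platelet-list genes that could be tested, Srgn, the granule proteoglycan serglycin, had -1.14 (edgeR adjusted p = 0.688), Flna, filamin A, -0.75, Nfe2 -0.30 and Tln1, talin 1, 0.20, the last 3 with an adjusted p of 0.993.

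Within the neutrophil line alone 0 of 215 genes passed (edgeR, 0% called, 4 with an unadjusted p under 0.05). Among partners of platelet-rich cells, where the median log2 fold change over all genes was -0.73, 4 of 1213 genes passed, all lower (0.330% called): Car2, Hbb-b1, Ctse and Ear1. Car2 and Hbb-b1, a β-globin, are erythroblast genes, and of the 9 partners 0 were erythroblasts. With genes of at least 20 transcripts over all sums, 30 genes were called lower and 2 higher of 6344 (edgeR, 0.473% and 0.0315%, together 0.504% called), with a median log2 fold change of -0.58 over all genes of that fit. At a rule limit of 10 per 10000, 7 of 468 genes were lower and 1 higher (edgeR, 1.5% and 0.214%, together 1.71% called). The 30 held muscle genes (Tnnc2, Acta1, Ckm, Ttn), eosinophil genes (Prg2, Ear1, Ear2, Ear6) and promyelocyte genes (Elane, Prtn3, Ctsg), and S100a4 was 1 of the 2 higher (log2 fold change 3.64, SE 0.68, 68 transcripts in all). Skeletal muscle genes, which mark another tissue, summed to 2.98 per 10000 in partners and 16.4 in all 634 comparison cells. The 634 include libraries without partners, which the fit did not use. The part of muscle genes in these calls was not tested.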

How the data were processed

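CEL-seq cells of mouse marrow were read from the authors' deposited table of the whole series, which holds estimated transcript counts (expected counts, not whole numbers) for 23536 gene rows and 1915 cells. Reads were aligned with BWA 0.6.2-r126 to mm10, per the submitters' processing notes. No source used here describes the later steps. The authors' deposited files per library were not used, since their wells carry no clump names. Libraries and clumps were read from column names, in which the number before the dot was taken as the clump. Doublets were not called, since wells were filled by hand.

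Members, marker lists and tests were chosen with earlier results of these data known. Cells with at least 500 transcripts were kept, and levels are transcripts per 10000. For genes, transcripts were summed per library and arm, rounded and fitted with edgeR 4.0.16 (TMM, filterByExpr, robust quasi-likelihood, library as a term) in R 4.3.3, with DESeq2 1.42.0 as an alternative; the test was tested on simulated data. Each SE is approximate, from dividing a log2 fold change by the root of its F statistic. Shares, depth and list levels were tested by flipping signs over libraries in full. Ratios to comparison cells use genes with at least 20 transcripts and a floor of 3 transcripts per group. Only counting error enters the intervals, and precision is limited by 1 to 23 partner cells per library. Named genes were the 8 with the lowest p where fewer than 6 passed (otherwise up to 12 each way), the 3 highest members of lists, platelet-list members, and genes leading by ratio outside them, taken over the platelet-rich cells in addition to all cells by rule; predicted genes were left out. Beta-s was added to the globin list after the table was read. Promoter windows come from RefSeq and positions from GENCODE vM21. Alternatives are given in the closing section.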

Additional observations from a re-analysis of the deposited data

Results flagged for a closer look

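Over 49 sets of library values, 12 had a library far from the others by Dixon's criterion, which chance does in about 1 of 20 sets of normally spread values. Many of these sets are shares of few cells with ties. There a library that differs from equal others is always flagged, so the 12 cannot be set against that rate. Among partners of all cells by rule, the median transcripts of library 15 (9468, next 3410) stood apart, as did the eosinophil share of library 14 (4.35%, others 0). Among their comparison cells the myelocyte share of library 2 (75.0%), the mature neutrophil share of library 9 (29.7%) and the macrophage share of library 12 (6.67%) stood apart. Among partners of platelet-rich cells, library 15 stood apart in median transcripts (9468, next 1234), in the log2 depth difference (2.24, others -0.56 or lower), in the monocyte and dendritic share (50.0%), in the unclassed share (50.0%) and in the neutrophil line share (0%, others 100%). Library 9 stood apart there in the myelocyte share of partners (33.3%) and the B cell share of comparison cells (1.89%).

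Rule genes were also found in sorted HSC, which entered no comparison: sorted replicates 3, 4 and 5 gave 0.911, 4.15 and 4.597 transcripts per 10000, above 3 transcripts in each library.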

How the results depend on the processing

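Partner and comparison cells were set against each other within libraries, in the gene fits through a library term and in the sign-flip tests through differences. Without library as a term 0 genes were called in either direction. Pairing by mouse was not possible, since the labels do not tie libraries to mice, and the numbers used here only name libraries. The ratios of platelet-rich cells and of cells by rule pool cells over libraries. The count of genes called higher in partners (0) was 1 at a limit of 10 per 10000, 2 with at least 20 transcripts over all sums and 2 without a filter, and leaving out single libraries gave 0 to 1. The count called lower (0) was 1 at a limit of 40, 7 at a limit of 10, 4 around platelet-rich cells, 1 with DESeq2, 30 with at least 20 transcripts over all sums and 27 without a filter, and leaving out single libraries gave 0 to 2 (Actn1 and Mmp8 lower and Tmsb10 higher without library 10, Prg2 without library 15).

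None of the class, depth and platelet-list differences passed under any alternative run, and several turned sign. At a class limit of 50, promyelocytes differed by 0.731 points. At a rule limit of 40, myelocytes differed by 2.15 and mature neutrophils by 1.90 points; with at least 1000 transcripts mature neutrophils differed by 2.10. Around platelet-rich cells mature neutrophils differed by 53.2 points (37.4 at a class limit of 200 and 52.8 at 50), the neutrophil line by 25.6 points (10.52 and 35.5), and depth by -0.0035 log2. Erythroblasts differed by 2.70 points at a limit of 10 and 0.759 at a class limit of 200, and by -10.2 to 3.67 over left-out libraries, positive without library 12 and without library 15. Depth differed by -0.0097 log2 with at least 1000 transcripts, -0.16 at a limit of 10, and -0.0011 to 0.46 over left-out libraries, negative without library 15. The platelet-list difference was -1.27 per 10000 at a limit of 10, -10.6 with Srgn and Tmsb4x, and -2.36 to 4.46 over left-out libraries, negative without library 12. The causes were not tested.

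The rule took 36 cells with at least 1000 transcripts, 31 at a limit of 40, 107 at a limit of 10 and 8 by the platelet-rich limit, and 34 to 55 without single libraries (34 without library 14). The alternative with the files per library was not run, since their wells carry no clump names. At this depth a change in platelet genes of partner cells below their spread between libraries was not detectable.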
